A study of Arabidopsis thaliana with 3 samples.

Results

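The UGT genes encode glycosyltransferases that move a sugar, usually glucose, from a UDP-sugar donor onto a small molecule. The 46 probe sets described here each name a single Arabidopsis thaliana gene whose symbol is UGT followed by its group number, out of 13356 genes that a probe set of the array names alone. UGT78D1, a flavonol rhamnosyltransferase gene, was left out by the rule of choice. Membership was set by gene symbol, but the members were chosen with earlier results of these data known. The RNA came from whole seedlings 7 days old, with 1 Affymetrix array for each of 3 genotypes. The genotypes were 35S:WRKY6-9, in which the viral 35S promoter drives the transcription factor gene WRKY6 throughout the plant, the knockout wrky6-1, and wild type of the Columbia ecotype. For every genotype the seeds were surface sterilised, kept in the cold on MS agar for 2 days and then germinated in continuous light, and the labels name no further treatment. Each line is a single line, and the labels do not say how many seedlings were pooled. No genotype was replicated, so every difference given is between single arrays, without a p-value or a replicate check.

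In plants the UGT enzymes end or store the activity of hormones, of phenolic compounds and of foreign chemicals by attaching glucose, and the glucosides are often moved into the vacuole. The family is divided into numbered groups by protein sequence, and a letter and a further number mark the subgroup and the gene. Many of its genes lie side by side in the genome, and members of a subgroup can accept the same substrates in the test tube. Sequence groups only partly follow function: auxin and salicylic acid, for example, are each glucosylated by enzymes of several groups.

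The deposited values are signal intensities on a linear scale. Signals under 45.5, the 30th percentile of all Arabidopsis probe sets on the 3 arrays, were raised to that floor before a log2 ratio was taken. A gene was called measured where its signal reached 174.6, the 50th percentile, on at least 1 array, and measured in a comparison when at least 1 of the 2 arrays compared did so. WRKY6 itself had a signal of 9245 in 35S:WRKY6-9, 12.1 in wrky6-1 and 322 in wild type, in the order its labels imply. The arrays were of similar overall brightness, with median signals of 169 in 35S:WRKY6-9, 173 in wrky6-1 and 182 in wild type. Where a gene had several probe sets, their log2 ratios disagreed with an SD of 0.25 per probe set for 35S:WRKY6-9 over wild type (45 genes), 0.23 for wrky6-1 over wild type (47 genes) and 0.27 for 35S:WRKY6-9 over wrky6-1 (46 genes), and this leaves out all differences between plants and hybridisations. In whole seedlings, fewer cells of a type and less RNA per cell cannot be told apart.

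Of the 46 UGT genes, 25 were measured, which is 54.3%, against 55.0% of all Arabidopsis probe sets. The measured ones covered all 11 group numbers among the members. They were 5 of 9 in group 71, 3 of 4 in group 72, 3 of 7 in group 73, 2 of 3 in group 74, 4 of 8 in group 76, 1 of 2 in group 78, 2 of 5 in group 84, 2 of 5 in group 85, and the single members of groups 80, 87 and 88. Just above the line stood UGT85A4 and UGT71C2, whose highest signals were 181 and 183, and just below it UGT84A1 at 165 and UGT76E12 at 138.

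**Figure D1:**
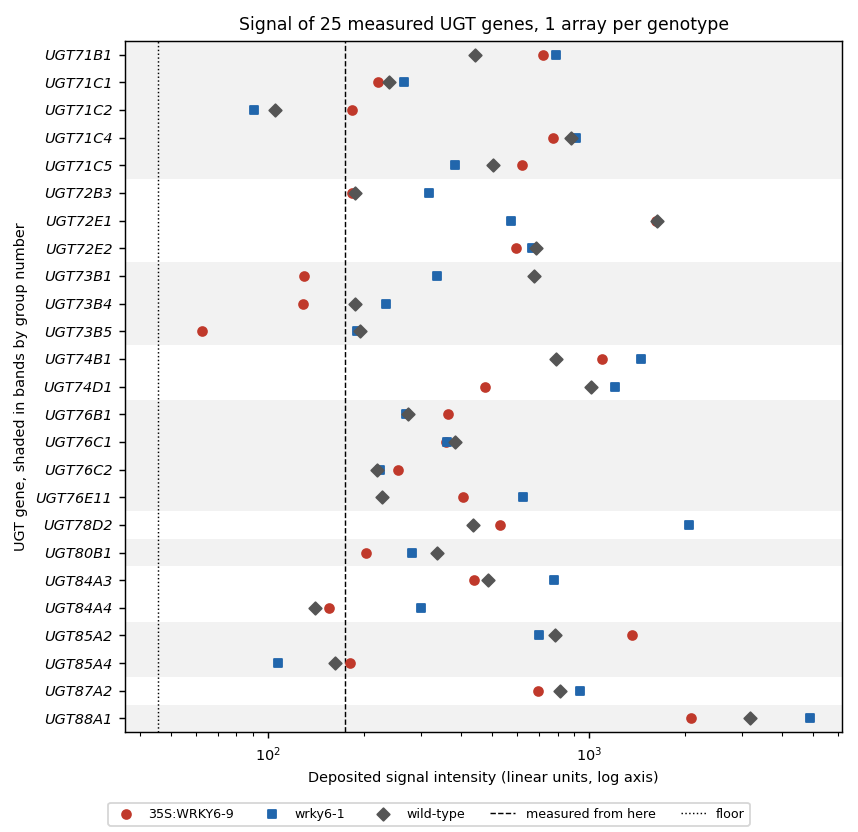
Signal of each measured UGT gene (log axis, linear units) on the array of 35S:WRKY6-9 (circles), wrky6-1 (squares) and wild type (diamonds), with the group numbers as shaded bands. UGT78D2 stands out by its wrky6-1 square at 2054, and UGT73B5 by its 35S:WRKY6-9 circle at 62.4, the leftmost point.

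In 35S:WRKY6-9 the measured members that differed from wild type by at least 2-fold were all lower, and they lay in groups 73 and 74. Outside the members, the probe set naming AT1G73885 and UGT89B1 together was higher, with a log2 ratio of 1.67. Those naming UGT73B2 with UGT73B3 and UGT71D1 with AT2G29710 were lower, at -1.26 and -0.51. Of 24 measured members, UGT73B1, UGT73B5 and UGT74D1 were at least 2-fold lower, which is 12.5%, against 5.61% of all measured probe sets. No measured member was at least 2-fold higher, against 3.79% of all. Either way the share was 12.5% against 9.4%. The median log2 ratio of the measured members was -0.06, and that of all measured probe sets -0.02. UGT73B1, UGT73B4 and UGT73B5 were measured here only through wild type, and UGT71C2 and UGT85A4 only through 35S:WRKY6-9, so the filter fixed their direction.

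In wrky6-1 the genes that differed by this size went both ways. UGT78D2, UGT76E11 and UGT84A4 were at least 2-fold higher, 3 of 23 measured members or 13.0%, against 5.16% of all measured probe sets. UGT72E1 and UGT73B1 were at least 2-fold lower, 8.70% against 7.77% of all, so the share of lower members was near the background. Either way it was 21.7% against 12.9%. UGT84A4 was measured here only through wrky6-1, so the filter fixed the direction of 1 of the 3 higher members. The median log2 ratio was 0.16 for the members and -0.01 for all measured probe sets. Both comparisons use the same wild-type array, so a deviation of that array enters both.

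Set against each other, the lines differed by at least 2-fold in 7 members, most of them lower in 35S:WRKY6-9. The log2 ratio of 35S:WRKY6-9 over wrky6-1 was at or above 1 for UGT72E1 and UGT71C2 and at or below -1 for UGT78D2, UGT73B5, UGT73B1, UGT74D1 and UGT88A1. These are 8% and 20% of the 25 measured members, against 4.53% and 4.65% of all measured probe sets, and together 28.0% against 9.18%. In all, 18 of the 25 had the lower signal in 35S:WRKY6-9, which is 72.0%, against 50.9% of all measured probe sets. The median was -0.41, against -0.01. Because the filter takes the higher array, UGT73B1, UGT73B4, UGT73B5 and UGT84A4 were measured in this comparison only through wrky6-1, and UGT71C2 and UGT85A4 only through 35S:WRKY6-9, which fixes their direction.

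**Figure D2:**
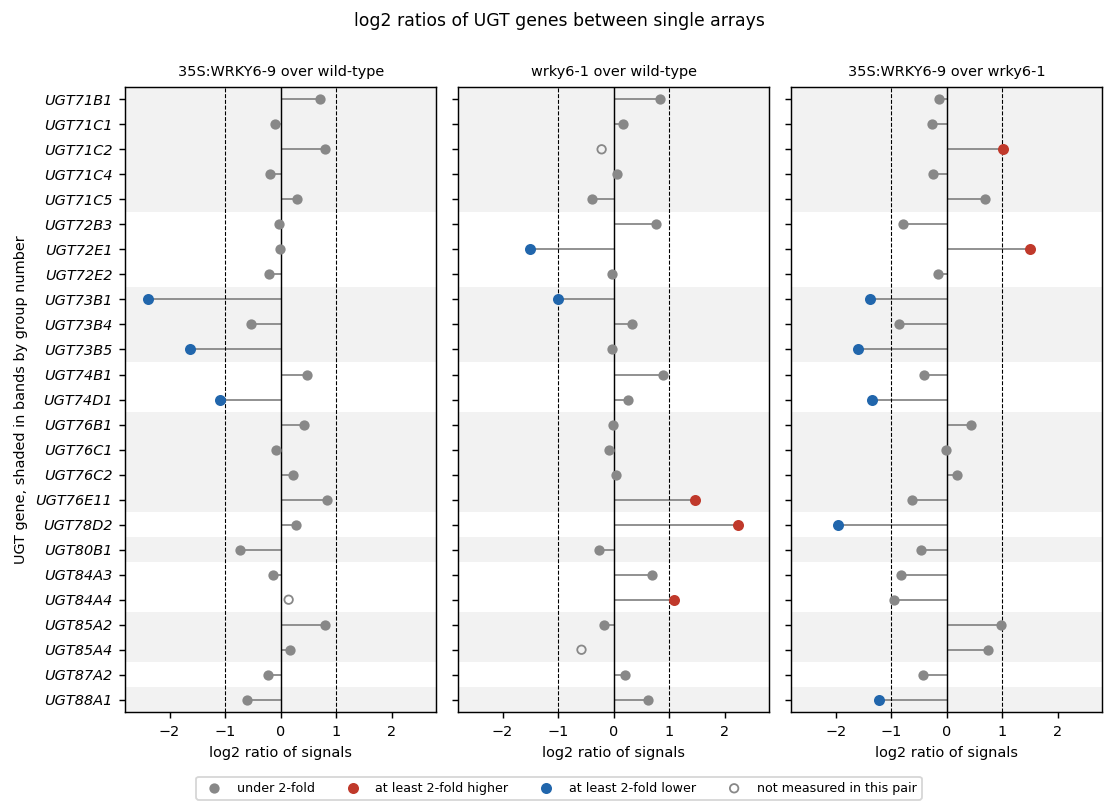
log2 ratios of signals between single arrays for the 25 measured UGT genes, for 35S:WRKY6-9 over wild type, wrky6-1 over wild type and 35S:WRKY6-9 over wrky6-1, with dashed lines at 2-fold and open circles for a gene not measured in that pair. The 3 filled points past 2-fold in the left panel are all lower, those in the middle panel lie on both sides, and the right panel has 5 lower and 2 higher.

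**Figure D3:**
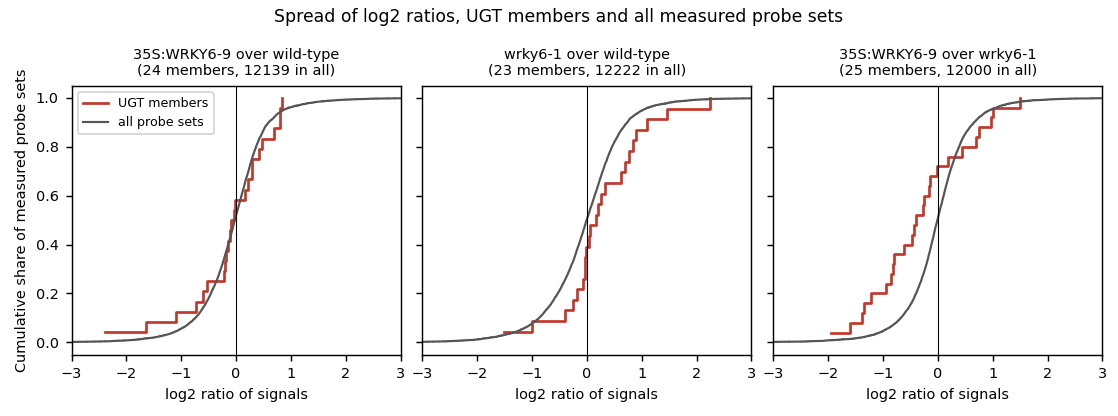
Cumulative share of measured UGT members and of all measured probe sets by log2 ratio, in the same 3 comparisons. The curve of the members crosses a share of 0.5 at -0.06, 0.16 and -0.41 from left to right, and that of all probe sets at -0.02, -0.01 and -0.01.

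Over the 3 arrays together, 16 of the 25 measured members (64.0%) stayed within 2-fold from their lowest to their highest signal, against 79.9% of all 12505 measured probe sets. The other 9 reached 2-fold, where 20.1% of all did. The median ratio of highest to lowest array was 1.79 for the members and 1.47 for all. The highest signal was on the wrky6-1 array for 13 of the 25 (52.0%, against 35.6% of all), on the 35S:WRKY6-9 array for 6 (24%, against 27.3%) and on the wild-type array for 6 (24%, against 37.1%). The lowest was on the 35S:WRKY6-9 array for 13 (52.0%, against 29.8%). The filter fixed the highest array of UGT84A4, measured only through wrky6-1, and of UGT71C2 and UGT85A4, measured only through 35S:WRKY6-9. UGT73B1, UGT73B4 and UGT73B5 were under the filter in 35S:WRKY6-9 and measured only through the other arrays, so that array had to be their lowest.

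Group 73 held the members furthest below wild type in 35S:WRKY6-9, UGT73B1 and UGT73B5. Its UGT73B genes act on flavonoids and other phenolics in the test tube and are known from responses to pathogens and oxidative stress. UGT73B1 (AT4G34138) had a signal of 129.6 in 35S:WRKY6-9, 338 in wrky6-1 and 677 in wild type. The 3 arrays were well apart, with wild type highest and 35S:WRKY6-9 lowest. The gene was 5.22-fold lower than wild type in 35S:WRKY6-9 (log2 ratio -2.38). In wrky6-1 it stood at the 2-fold line itself (log2 ratio -1.0), and fell short of it when the arrays were rescaled, at -0.94 with quantile and -0.93 with median scaling. Between 35S:WRKY6-9 and wrky6-1 its log2 ratio was -1.38. It had the widest range over the arrays of the 25 measured members.

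UGT73B5 (AT2G15480), known from the redox response to bacterial infection, had a signal of 62.4 in 35S:WRKY6-9, 190.1 in wrky6-1 and 194 in wild type. Only the 35S:WRKY6-9 array was low, by 3.11-fold against wild type (log2 ratio -1.64), while wrky6-1 lay at -0.03. This signal is near the floor, and with the floor at the 40th percentile the ratio to wild type was -1.01. UGT73B4 (AT2G15490), the gene beside it, which can conjugate the explosive TNT, had signals of 129.1 in 35S:WRKY6-9, 233 in wrky6-1 and 187 in wild type. It too was lowest in 35S:WRKY6-9, but its log2 ratio of -0.53 did not reach 2-fold, and in wrky6-1 it was 0.32. All 3 measured group 73 genes had their lowest signal in 35S:WRKY6-9, with a median log2 ratio to wild type of -1.64. The filter fixed this direction, because they were measured only through wild type in one comparison and only through wrky6-1 in the other.

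The remaining group 73 members were not measured. UGT73C1, which can glucosylate cytokinins and conjugate TNT, had signals of 31.7 in 35S:WRKY6-9, 84.6 in wrky6-1 and 66.9 in wild type. UGT73C2, UGT73C7 and UGT73D1 stayed under the floor on all arrays, with highest signals of 9.96, 30.8 and 34.5. A further probe set names UGT73B2 and UGT73B3 together, the neighbours of UGT73B1 in the genome, and so is not among the members. Its signal was 1254 in 35S:WRKY6-9, 2128 in wrky6-1 and 3005 in wild type, with log2 ratios to wild type of -1.26 for 35S:WRKY6-9 and -0.50 for wrky6-1. These are in the same order over the arrays as those of UGT73B1.

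Among 6208 other single-gene probe sets measured in both comparisons with wild type, those whose pair of log2 ratios lay nearest to that of UGT73B1 were APS4, AT2G24240 and THI2.2. APS4, an ATP sulfurylase gene, had signals of 454 in 35S:WRKY6-9, 1153 in wrky6-1 and 2137 in wild type. AT2G24240 had 94.1 in 35S:WRKY6-9, 281 in wrky6-1 and 493 in wild type. THI2.2, a thionin gene, had 302 in 35S:WRKY6-9, 912 in wrky6-1 and 1562 in wild type. The distances were 0.19, 0.19 and 0.22 on the log2 scale, over 2 ratios that share the wild-type array.

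Group 74 split into a gene low in 35S:WRKY6-9 and a gene high in both lines. UGT74D1 (AT2G31750), which glucosylates auxin and its oxidised form, had a signal of 475 in 35S:WRKY6-9, 1211 in wrky6-1 and 1016 in wild type. The 35S:WRKY6-9 array was low and the others were close to each other. It was 2.14-fold lower than wild type in 35S:WRKY6-9 (log2 ratio -1.10, or -0.99 with median scaling) and had a log2 ratio of 0.25 in wrky6-1. Compared directly, 35S:WRKY6-9 was 2.55-fold below wrky6-1.

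UGT74B1 (AT1G24100), the S-glucosyltransferase of the glucosinolate core pathway, had signals of 1099.9 in 35S:WRKY6-9, 1459 in wrky6-1 and 789 in wild type. Wild type was lowest, with log2 ratios of 0.48 for 35S:WRKY6-9 and 0.89 for wrky6-1, both short of 2-fold. BCAT4, the only gene of the 18 in the glucosinolate list that had a named probe set, had signals of 1312 in 35S:WRKY6-9, 2712 in wrky6-1 and 1122 in wild type, the same order over the arrays. Its log2 ratio to wild type was 0.22 in 35S:WRKY6-9 and 1.27 in wrky6-1. UGT74F1, a salicylic acid glucosyltransferase gene, was not measured, with a highest signal of 43.5.

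Group 78 held the largest single difference from wild type in wrky6-1 among the measured members. UGT78D2 (AT5G17050), which puts glucose on flavonols and anthocyanidins, had a signal of 530.1 in 35S:WRKY6-9, 2054 in wrky6-1 and 436 in wild type. Only the wrky6-1 array was high. The gene was 4.71-fold higher than wild type in wrky6-1 (log2 ratio 2.24), while 35S:WRKY6-9 lay at 0.28. Between 35S:WRKY6-9 and wrky6-1 the log2 ratio was -1.95. The excluded UGT78D1 had 416 in 35S:WRKY6-9, 1657 in wrky6-1 and 218 in wild type. UGT78D3, a flavonol arabinosyltransferase gene near UGT78D2 in the genome, was under the floor on all arrays, at most 14.8.

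Group 84 makes glucose esters, of sinapic and other hydroxycinnamic acids in subgroup A and of auxin in subgroup B. UGT84A4 (AT4G15500) had a signal of 156 in 35S:WRKY6-9, 300.25 in wrky6-1 and 141 in wild type. It was 2.13-fold higher in wrky6-1 (log2 ratio 1.09) and was measured there only through that array. UGT84A3 (AT4G15490), its neighbour, had signals of 440.0 in 35S:WRKY6-9, 780.1 in wrky6-1 and 485 in wild type, with log2 ratios of -0.14 for 35S:WRKY6-9 and 0.69 for wrky6-1. Both genes had their highest signal in wrky6-1, which the filter fixed for UGT84A4. The next gene along, UGT84A1 (AT4G15480), was not measured. Its signals were 16.9 in 35S:WRKY6-9, 165 in wrky6-1 and 5.46 in wild type, all but that of wrky6-1 under the floor. UGT84B1 and UGT84B2 stayed under the floor, at most 14.6 and 16.9.

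The phenylpropanoid and sinapate list of 20 genes, which supplies the acids and alcohols that these enzymes and those of group 72 accept, had 3 named probe sets. HCT, the hydroxycinnamoyl transferase, had signals of 3229 in 35S:WRKY6-9, 4693 in wrky6-1 and 2274 in wild type, and CCR2, a cinnamoyl-CoA reductase gene, had 133 in 35S:WRKY6-9, 231 in wrky6-1 and 94.4 in wild type. Both were at least 2-fold higher in wrky6-1, with log2 ratios to wild type there of 1.05 for HCT and 1.29 for CCR2. They are 2 of 3 measured genes, where 5.16% of all measured probe sets were as much higher, and CCR2 was measured only through wrky6-1, which fixes its direction. In 35S:WRKY6-9 no measured gene of the list reached 2-fold. ALDH2C4, which makes ferulic and sinapic acid, had signals of 2723 in 35S:WRKY6-9, 1933 in wrky6-1 and 2167 in wild type.

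In group 72 a gene of the monolignol branch was low in the knockout. UGT72E1 (AT3G50740), which glucosylates coniferyl and sinapyl aldehydes, had a signal of 1619 in 35S:WRKY6-9, 574 in wrky6-1 and 1636 in wild type. Here 35S:WRKY6-9 and wild type were alike and wrky6-1 alone was low, by 2.85-fold against wild type (log2 ratio -1.51). Between 35S:WRKY6-9 and wrky6-1 the log2 ratio was 1.5. UGT72E2 (AT5G66690), which acts on the matching alcohols, had signals of 594 in 35S:WRKY6-9, 665 in wrky6-1 and 684 in wild type. Its log2 ratios of -0.20 for 35S:WRKY6-9 and -0.04 for wrky6-1 were within the disagreement between probe sets of a gene, so the low wrky6-1 signal of UGT72E1 was not seen in its relative.

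UGT72B3 (AT1G01420) had signals of 184 in 35S:WRKY6-9, 319 in wrky6-1 and 188 in wild type, high in wrky6-1 alone with a log2 ratio of 0.77. The third subgroup E gene, UGT72E3, which prefers sinapyl alcohol, was not measured, at 17.5 in 35S:WRKY6-9, 56.8 in wrky6-1 and 69.8 in wild type.

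Among the 4 measured genes of group 76, UGT76E11 was at least 2-fold from wild type in one line and the others in neither. UGT76E11 (AT3G46670), which can act on flavonols, had a signal of 406 in 35S:WRKY6-9, 625 in wrky6-1 and 227 in wild type. Wild type was lowest, and the gene was 2.76-fold higher in wrky6-1 (log2 ratio 1.46) and 1.79-fold higher in 35S:WRKY6-9 (0.84). UGT76E12 (AT3G46660), close by in the genome, was not measured, with 77.8 in 35S:WRKY6-9, 138 in wrky6-1 and, under the floor, 3.59 in wild type.

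UGT76C1 (AT5G05870) and UGT76C2 (AT5G05860), which attach glucose to the ring nitrogen of cytokinins, differed little. UGT76C1 had signals of 361 in 35S:WRKY6-9, 363 in wrky6-1 and 384 in wild type, and UGT76C2 had 254 in 35S:WRKY6-9, 224 in wrky6-1 and 219 in wild type. All 4 of their log2 ratios to wild type lay between -0.09 and 0.22, and UGT76C1 had the narrowest range over the arrays of the 25 measured members. UGT76B1 (AT3G11340), which acts on salicylic acid and isoleucic acid in defence, had signals of 365 in 35S:WRKY6-9, 271 in wrky6-1 and 274 in wild type. Its log2 ratio of 0.41 in 35S:WRKY6-9 did not reach 2-fold. UGT76D1, UGT76E1 and UGT76E2 were not measured, with highest signals of 69.6, 5.13 and 70.6.

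Group 71, which includes glucosyltransferases of abscisic acid and of phenolic compounds, had 5 measured genes and none at least 2-fold from wild type. UGT71B1 (AT3G21750), which accepts phenolic compounds in the test tube, had signals of 719 in 35S:WRKY6-9, 794 in wrky6-1 and 443 in wild type. It was higher in both lines, with log2 ratios of 0.70 for 35S:WRKY6-9 and 0.84 for wrky6-1. UGT71C5 (AT1G07240), a main abscisic acid glucosyltransferase gene, had signals of 621 in 35S:WRKY6-9, 383 in wrky6-1 and 505 in wild type. Its log2 ratios of 0.30 for 35S:WRKY6-9 and -0.40 for wrky6-1 lay on opposite sides of wild type, in the direction of the WRKY6 signal, and 35S:WRKY6-9 was 1.62-fold above wrky6-1.

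UGT71C2 (AT2G29740) had signals of 183 in 35S:WRKY6-9, 90.5 in wrky6-1 and 105 in wild type. It was high in 35S:WRKY6-9 alone and measured only through that array. Its log2 ratio was 0.79 over wild type and 1.01 over wrky6-1, the second being 0.92 with the floor at the 40th percentile. UGT71C1 (AT2G29750), the neighbouring gene, which acts on hydroxycinnamic acids in the test tube, had signals of 221 in 35S:WRKY6-9, 267 in wrky6-1 and 239 in wild type. UGT71C4 (AT1G07250), beside UGT71C5, had 772 in 35S:WRKY6-9, 916 in wrky6-1 and 881 in wild type. Each differed by at most 1.21-fold between any pair of arrays. UGT71C3, UGT71B5, UGT71B6 and UGT71B8 were not measured, with highest signals of 122, 34.9, 43.6 and 24.6. UGT71B6 is another abscisic acid glucosyltransferase gene.

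In group 85 both measured genes had their highest signal in 35S:WRKY6-9 and their lowest in wrky6-1. For UGT85A4 the filter fixed the highest array, because the gene was measured only through 35S:WRKY6-9. It was not measured in the comparison of wrky6-1 with wild type. UGT85A2 (AT1G22360) had signals of 1368 in 35S:WRKY6-9, 699 in wrky6-1 and 788 in wild type, with log2 ratios of 0.80 for 35S:WRKY6-9 and -0.17 for wrky6-1. UGT85A4 (AT1G78270) had 181 in 35S:WRKY6-9, 108 in wrky6-1 and 162 in wild type, and its log2 ratio between 35S:WRKY6-9 and wrky6-1 was 0.74. The gap between the lines was just short of 2-fold for UGT85A2, at 1.96-fold. Against wild type, UGT85A2 in wrky6-1 and UGT85A4 in 35S:WRKY6-9 (log2 ratio 0.16) were within the disagreement between probe sets. The place of wild type between the lines is therefore not clear. UGT85A3, UGT85A5 and UGT85A7 were not measured, with highest signals of 51.7, 118 and 65.3.

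The single members of the other groups were spread between the lines. UGT88A1 (AT3G16520), active on flavonols in the test tube, had a signal of 2088 in 35S:WRKY6-9, 4885 in wrky6-1 and 3178 in wild type. Wild type lay between the lines, with log2 ratios of -0.61 for 35S:WRKY6-9 and 0.62 for wrky6-1, and 35S:WRKY6-9 was 2.34-fold below wrky6-1. UGT87A2 (AT2G30140), known to affect flowering time, had signals of 697 in 35S:WRKY6-9, 940.2 in wrky6-1 and 815 in wild type. Its log2 ratios to wild type were -0.23 for 35S:WRKY6-9 and 0.21 for wrky6-1, no larger than the disagreement between probe sets. Between 35S:WRKY6-9 and wrky6-1 its log2 ratio was -0.43, beyond the SD of 0.27 for that comparison but short of 2-fold. UGT80B1 (AT1G43620), a sterol glucosyltransferase that is only distantly related to the other members, had signals of 203 in 35S:WRKY6-9, 281 in wrky6-1 and 336 in wild type. It was lower in both lines, with a log2 ratio of -0.73 for 35S:WRKY6-9 and -0.26 for wrky6-1, short of 2-fold.

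Position in the genome was not used to choose the members. With neighbours defined as family genes that have no other protein-coding gene between them, 34 of the 46 members lay in runs of neighbouring family genes, the longest holding 6. In 5 runs a pair of members was measured. UGT84A3 and UGT84A4 were both higher in wrky6-1, and UGT73B5 and UGT73B4 both lower in 35S:WRKY6-9. The filter fixed the direction of UGT84A4 in wrky6-1 and of both UGT73B genes in 35S:WRKY6-9. UGT76C1 and UGT76C2 were both close to wild type. In the pair UGT71C1 and UGT71C2 and in the pair UGT71C4 and UGT71C5, the log2 ratios had opposite signs in each line. They were at most 0.79 in size. Those of UGT71C1 (-0.11 in 35S:WRKY6-9 and 0.16 in wrky6-1) and UGT71C4 (-0.19 and 0.06) were within the disagreement between probe sets. Their side of wild type is therefore not clear. UGT71C2 was not measured in the comparison of wrky6-1 with wild type. Neighbouring genes of a subgroup can be similar in sequence, and how far a probe set also binds the RNA of its neighbour was not tested.

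**Figure D4:**
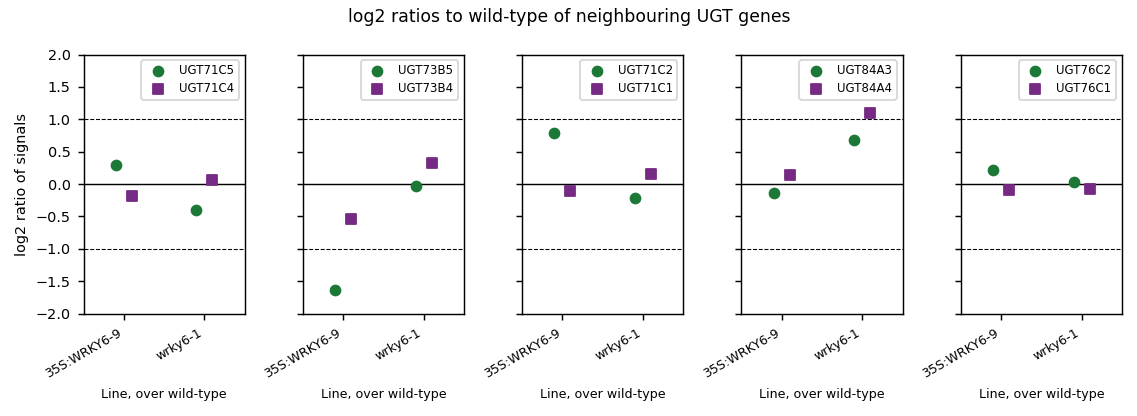
log2 ratio of signals over wild type, with 35S:WRKY6-9 left and wrky6-1 right, for the 5 pairs of neighbouring UGT genes that were both measured on at least 1 array, with dashed lines at 2-fold. UGT73B5 lies at -1.64 and UGT73B4 at -0.53 in 35S:WRKY6-9, and UGT84A3 at 0.69 and UGT84A4 at 1.09 in wrky6-1.

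Other genes of the family that carry a locus code or another kind of symbol were looked up from a list of 116 loci, 46 of them the members. A further 47 had a probe set of their own. In 35S:WRKY6-9, 1 of 15 measured was at least 2-fold higher than wild type and 0 lower, with AT5G53990 at 177 in 35S:WRKY6-9, against 57.5 in wild type. Of all measured probe sets 3.79% were higher by this size and 5.61% lower, and AT5G53990 was measured only through 35S:WRKY6-9, so the filter fixed its direction. In wrky6-1, 7 of 20 were at least 2-fold higher, against 5.16% of all measured probe sets, and 2 lower, against 7.77%. The median log2 ratio was 0.57 for the measured genes of the list and -0.01 for all measured probe sets. The higher ones were UF3GT, the anthocyanin xylosyltransferase gene (864 in wrky6-1 against 69.0 in wild type), AT4G14090 (846 against 85.8), AT1G06000 (3835 against 454), AT2G22590 (237 against 51.8), AT2G16890 (178 against 47.3), AT3G46700 (215 against 77.9) and AT2G31790 (1614 against 663). The lower ones were AT4G15260 (123 in wrky6-1 against 267 in wild type) and AT5G05880 (117 against 238). UF3GT, AT4G14090, AT2G22590, AT2G16890 and AT3G46700 were measured only through wrky6-1, and both lower genes only through wild type, so the filter fixed the direction of 5 of the 7 higher genes and of both lower ones.

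Between 35S:WRKY6-9 and wrky6-1, 0 of 19 reached 2-fold upward, against 4.53% of all measured probe sets, and 6 did so downward, against 4.65%. AT4G14090, UF3GT, AT1G06000, AT2G22590, AT2G16890 and AT2G31790 were the 6. AT4G14090, UF3GT, AT2G22590 and AT2G16890 were measured only through wrky6-1, which fixes the direction of 4 of the 6. AT1G06000, for example, had a signal of 502 in 35S:WRKY6-9, against 3835 in wrky6-1. The list of 13 genes of UDP-glucose supply had 1 probe set, for USP, a UDP-sugar pyrophosphorylase, with signals of 773 in 35S:WRKY6-9, 833 in wrky6-1 and 716 in wild type. The list of 17 detoxification genes had 2, and neither reached 2-fold against wild type. The alkenal reductase gene AER had 857 in 35S:WRKY6-9, 1059 in wrky6-1 and 981 in wild type. The glutathione transferase gene GSTU25 had 1205 in 35S:WRKY6-9, 2212 in wrky6-1 and 1390 in wild type.

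Tissue markers and controls for RNA integrity differed between the arrays too. Of 6 root markers 3 had a named probe set, all measured and none at 0, and their summed signal was 18057 in 35S:WRKY6-9, 18511 in wrky6-1 and 14519 in wild type. Most of this sum came from PYK10, a root beta-glucosidase gene, with 17509 in 35S:WRKY6-9, 18203 in wrky6-1 and 14213 in wild type. EXPA7, a root hair expansin gene, had signals of 243 in 35S:WRKY6-9, 113 in wrky6-1 and 128 in wild type. EXPA18, another, had 305 in 35S:WRKY6-9, 195 in wrky6-1 and 179 in wild type. Of 6 photosynthesis markers 2 had one, both measured, with sums of 39826 in 35S:WRKY6-9, 39260 in wrky6-1 and 39264 in wild type. These near-equal sums hold opposite differences. RCA, the Rubisco activase gene, had 25048 in 35S:WRKY6-9, 25155 in wrky6-1 and 19737 in wild type, and LHCB4.2, a light-harvesting protein gene, had 14778 in 35S:WRKY6-9, 14105 in wrky6-1 and 19527 in wild type. The actin control had a ratio of its 3' to its 5' probe set of 13.1 in 35S:WRKY6-9, 9.16 in wrky6-1 and 10.2 in wild type. The same ratio for ubiquitin was 2.09 in 35S:WRKY6-9, 1.87 in wrky6-1 and 2.66 in wild type, and for GAPDH 1.25 in 35S:WRKY6-9, 0.953 in wrky6-1 and 1.23 in wild type. All 3 controls were lowest in wrky6-1, and they differed in which of the other arrays was highest. The part of the tissue share and of RNA integrity in the UGT ratios was not tested.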

How the data were processed

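Per the labels, total RNA of each genotype was labelled with biotin and hybridised to 1 array. The authors deposited a signal intensity per probe set, and per the submitters' processing notes GCOS 1.0 and MAS5 were used, without a stated role. The 2% trimmed means were 499.8 in 35S:WRKY6-9, 500.1 in wrky6-1 and 500.0 in wild type, so the values were taken as already scaled. The 64 Affymetrix controls were left out of all counts. Log2 ratios were taken with Python 3.11.15 and pandas 2.3.3 after the floor, and tested on simulated data with known folds. The folds were put only into probe sets well above the filter, so genes near the floor or the filter were not covered. The simulated noise was smaller than the disagreement between probe sets, and every planted fold was well past 2-fold. The check therefore covers the calculation and not the precision of the ratios. With 1 array per genotype no test was possible, and the number of arrays limits the precision. Gene names came from the platform annotation and were updated by Entrez identifier to the TAIR10.1 gene table, which changed the symbol of 0 members. The annotation used here did not list 8730 probe sets. Probe sets naming several genes were not members. The naming rule took every member, list genes at least 2-fold different, and the 3 nearest profiles of each member at least 2-fold different in both lines, searched among measured probe sets. Only UGT73B1 met that condition. The members and lists were chosen with earlier results of these data known. Alternatives changed the floor, the filter, the scaling and the source of the symbol.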

Additional observations from a re-analysis of the deposited data

Results flagged for a closer look

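A probe set outside the members, which names AT1G73885 and UGT89B1 together, was above its wild-type signal in 35S:WRKY6-9. It had a signal of 2577 in 35S:WRKY6-9, 833 in wrky6-1 and 812 in wild type. The log2 ratio to wild type was 1.67 in 35S:WRKY6-9 and 0.04 in wrky6-1. Which of the 2 genes the signal comes from was not tested.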

How the results depend on the processing

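With single arrays, counts of a few genes shift by a gene or more with each choice. Of 120 recomputed counts and medians 103 stayed within 1.5 times of the reported count, or within the disagreement between probe sets for medians, and 17 moved. The source of the symbol could not move any of them, because it changed 0 members. The SD of a single probe set is a loose limit for a median of many genes. Without a filter the median of 35S:WRKY6-9 over wrky6-1 went from -0.41 to -0.15. That of wrky6-1 over wild type went from 0.16 to 0, and both were counted as having stayed. Without a filter, members under the floor on both arrays enter with a ratio of 0, which pulls both medians toward 0. For the UGT members, the 2 that were higher in 35S:WRKY6-9 than in wrky6-1 became 1 with the floor at the 40th percentile, with the filter at the 70th percentile and with the filter on the mean of both arrays. The 5 lower became 3 with the filter at the 70th percentile. The 3 lower in 35S:WRKY6-9 than in wild type became 2 with the filter at the 70th percentile, with the filter on the mean of both arrays and under median scaling. This shift was counted as having stayed. Without a filter the 3 higher in wrky6-1 than in wild type became 5, and under quantile and median scaling the 2 lower became 1. For the locus-coded list, the 1 above wild type in 35S:WRKY6-9 became 0 with the floor at the 40th percentile and with both stricter filters, and 2 without a filter, where the 0 lower became 1. The 7 higher in wrky6-1 than in wild type became 4 with both stricter filters, and the 2 lower became 0 with the filter at the 70th percentile and 1 under quantile and median scaling. The list's alternatives were chosen after seeing the data. Of 288 recomputed log2 ratios of single members, 11 changed sign, none of them past 2-fold as reported, and 5 crossed the 2-fold line. Besides the crossings of UGT73B1, UGT74D1 and UGT71C2 given with those genes, UGT73B5 between 35S:WRKY6-9 and wrky6-1 was -1.61 as reported and -0.98 with the floor at the 40th percentile. The WRKY6 ratio of wrky6-1 to wild type is set by the floor, at -4.03, -2.82 and -1.74 with the floor at the 20th, 30th and 40th percentile. No paired analysis was possible because each genotype has 1 array.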
